A study of Saccharomyces cerevisiae with 6 samples.

Results

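The 30 budding yeast genes described here serve the endoplasmic reticulum (ER), the compartment where proteins bound for the secretory pathway enter, fold and are inspected. They were taken by symbol, and all 30 were found, each with 1 probe set, among 5449 genes covered by 5498 tested probe sets. In 4 groups, 16 belong to folding, 6 to the translocon, 6 to ER-associated degradation and 2 to signalling. The samples were 3 arrays of wild type Saccharomyces cerevisiae (replicates 3, 4 and 6) and 3 arrays of a Delta VPS4 strain, in which VPS4 is knocked out (replicates 4, 5 and 6). Both strains grew at 26 °C in YNB synthetic medium supplied with the amino acids each needed, and RNA was taken in the midlog phase. The strain background, the marker that replaced VPS4 and the number of clones are not given in the sources used here. VPS4 encodes the ATPase that disassembles ESCRT-III on endosomes, where membrane proteins are sorted into multivesicular bodies on their way to the vacuole, and by its title the series belongs to work on ESCRT mutants and amino acid recycling.

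Proteins enter the ER through the Sec61 channel, where the lumenal Hsp70 Kar2 and its partners pull and fold them and the Pdi1 and Ero1 pair forms their disulfide bonds. Chains that fail are passed to the Hrd1 ubiquitin ligase, moved back to the cytosol and destroyed by the proteasome. When unfolded protein gathers, the membrane sensor Ire1 cuts an intron from HAC1 messenger RNA, and the Hac1 transcription factor made from the spliced message raises many of these genes together, which is the unfolded protein response. The arrays gave 1 level per gene, on a log2 scale, and no reading of HAC1 splicing. In RNA from whole cultures, a change in every cell and a change in part of the cells cannot be told apart.

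All 30 genes stood above the array background on all 6 arrays. The background was percentile 95 of 1747 annotated probe sets not matched to exactly 1 S. cerevisiae gene. They were taken as another yeast's, though any matched to several S. cerevisiae genes are among them. VPS4 stood at 11.48, 11.39 and 11.46 in wild type replicates 4, 6 and 3 and at 1.75, 1.42 and 1.29 in deletion replicates 4, 5 and 6, so every array carried the level its label gives. In the deletion VPS4 was not above background. Its wild type mean stood 760-fold above the background of the deletion arrays, so VPS4 was at least that much lower there. The limma difference was −9.96 log2 (Benjamini-Hochberg adjusted p = 1.30e-07). Wild type replicate 3 stood apart. Over all tested probe sets Pearson's r, taken across genes that are not independent replicates, was 0.9926 between it and replicate 4 or 6, against 0.9991 between those 2 and 0.9988 to 0.9991 among the deletion arrays. Replicates 4 and 6 correlated with the deletion arrays at 0.9936 to 0.9943, and replicate 3 at 0.9895 to 0.9899. Array values follow the order of replicates 4, 6 and 3 for wild type and 4, 5 and 6 for the deletion. The labels do not state whether replicates are separate cultures, and the p-values reflect only how far these arrays differ from each other, which may be technical.

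Of the 30 genes 1 rose in the deletion, 0 fell and 29 did not pass the test (limma, Benjamini-Hochberg over 5498 probe sets, threshold 0.05). The gene that rose was HAC1. Across the array 4.27% of probe sets were called, 2.82% higher and 1.46% lower, so 1 call in 30 is near the background share. At an unadjusted p under 0.05 there were 5 of the 30, 4 higher and 1 lower, beside 17.4% of all probe sets, 9.62% higher and 7.80% lower. The groups did not overlap for 7 genes, or 23.3%, against 24.8% of all probe sets. The median difference, deletion minus wild type, was 0.027 log2 for the 30 genes and −0.0019 for all probe sets. The difference lay above 0 for 22 of the 30 genes, but for 21 after quantile normalization and 18 once each array was centred on its median. Over all probe sets 48.9% lay above 0 before centring and 39.9% after it.

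The intervals say how large a change these arrays leave room for. Every 95% confidence interval of the 30 differences lay within 0.346 log2 of 0, which is 1.27-fold. Of the 30 intervals 28 lay within 1.2-fold in either direction and 11 within 1.1-fold. The widest belonged to EUG1, from −0.35 to 0.17. These intervals are per gene and are not adjusted for their number. In wild type the median SD of the 30 genes was 0.051, below the 0.077 of all probe sets. In the deletion it was 0.048, against 0.045 over all probe sets.

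**Figure D1:**
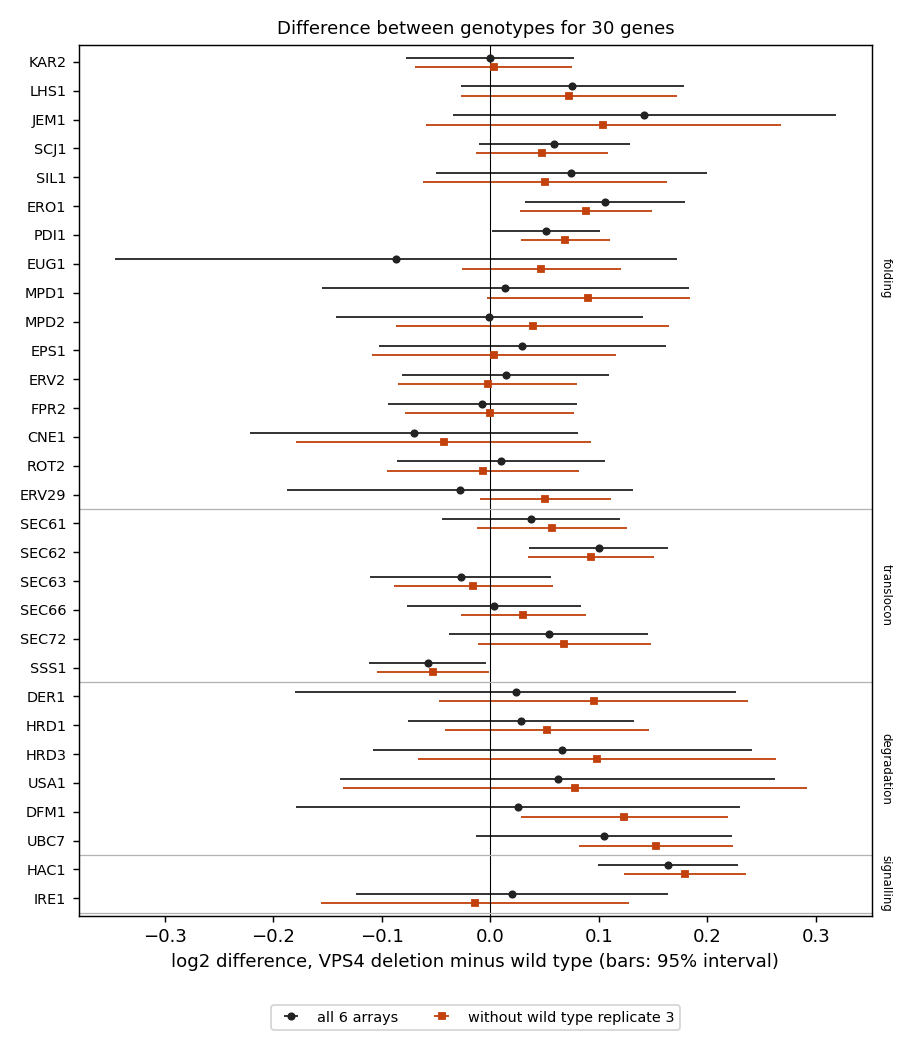
Difference in log2 level (x axis) between the VPS4 deletion and wild type for each of the 30 genes (y axis), with 95% confidence intervals from limma. Black points use all 6 arrays and orange squares leave out wild type replicate 3. HAC1 lies at 0.16 with an interval clear of 0, and EUG1 has the widest interval with all arrays, which narrows without replicate 3.

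HAC1, which encodes the transcription factor of the unfolded protein response, stood at 12.22, 12.27 and 12.29 in wild type replicates 4, 6 and 3. In deletion replicates 4, 5 and 6 it stood at 12.44, 12.38 and 12.44. All deletion arrays lay above all wild type arrays, and wild type replicate 3 was the highest of its group. The difference was 0.16 ± 0.03 (SE; 95% confidence interval 0.099 to 0.229), a 1.12-fold increase (limma adjusted p = 0.0240). It was a small change among those called, since 16 of the 235 called probe sets had a smaller one and their median size was 0.41. The difference lay between 0.14 and 0.20 over all alternatives, but the call ended when any array but wild type replicate 3 was left out, and without a variance trend, with adjusted p-values over all alternatives from 0.00086 to 0.129.

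IRE1, the sensor that splices HAC1, stood at 7.61, 7.71 and 7.56 in wild type replicates 4, 6 and 3 and at 7.66, 7.61 and 7.67 in the deletion. The groups overlapped. Its difference of 0.020 ± 0.060 (SE) did not pass (limma adjusted p = 0.912), and the interval ran from −0.12 to 0.16. Among 4 further genes of this signalling, TRL1, the ligase that rejoins the cut HAC1 message, TPT1, PTC2 and DCR2, 0 passed with all arrays. PTC2, which encodes a phosphatase that acts on Ire1, differed by 0.034 ± 0.067 (SE; limma adjusted p = 0.857). Without wild type replicate 3, a fit that called 22.0% of all probe sets, it rose by 0.11 ± 0.03 (SE; limma adjusted p = 0.0143). PTC2 was chosen after its values were seen. DCR2, which encodes another phosphatase of Ire1, had the smallest p of these, with a difference of −0.19 ± 0.08 (SE; limma adjusted p = 0.305).

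The Hsp70 system of the lumen holds KAR2, its exchange factors LHS1 and SIL1, and the J-domain partners JEM1 and SCJ1. None of these 5 passed (limma; 0 also at an unadjusted p under 0.05). KAR2, the standard reporter of the unfolded protein response, stood at 12.60, 12.65 and 12.63 in wild type replicates 4, 6 and 3 and at 12.66, 12.66 and 12.56 in the deletion. The deletion arrays lay on both sides of the wild type range. Its difference was −0.00027 ± 0.032 (SE), with an interval from −0.078 to 0.077, inside 1.1-fold in either direction.

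LHS1 stood at 9.03, 9.01 and 9.01 in wild type and at 9.05, 9.15 and 9.09 in the deletion. SCJ1 stood at 10.39, 10.35 and 10.34 against 10.42, 10.42 and 10.43. For both genes the deletion arrays were all higher, but by 0.076 ± 0.043 and 0.059 ± 0.029 (SE), which did not pass (limma adjusted p = 0.440 and 0.363). JEM1 had the second widest gap of the 30 after HAC1, 0.14 ± 0.07 (SE; limma adjusted p = 0.390), yet its groups overlapped, since deletion replicate 5 at 7.77 lay below wild type replicate 6 at 7.78. SIL1 differed by 0.075 ± 0.052 (SE; limma adjusted p = 0.546).

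Thiol chemistry in the lumen is carried by the oxidases Ero1 and Erv2, the isomerase Pdi1 and its relatives Eug1, Mpd1, Mpd2 and Eps1. Of these 7 genes 0 passed (limma), and 2, ERO1 and PDI1, had an unadjusted p under 0.05, beside 17.4% of all probe sets. ERO1 stood at 10.55, 10.56 and 10.51 in wild type replicates 4, 6 and 3 and at 10.65, 10.67 and 10.62 in the deletion, with no overlap. The difference was 0.11 ± 0.03 (SE; 95% interval 0.032 to 0.180; limma adjusted p = 0.136). PDI1 stood at 12.51, 12.50 and 12.56 against 12.57, 12.57 and 12.58, also with no overlap, and wild type replicate 3 came nearest to the deletion. Its difference was 0.051 ± 0.021 (SE; limma adjusted p = 0.276).

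EUG1 was the gene in which wild type replicate 3 stood farthest out. It stood at 9.69 and 9.68 in wild type replicates 4 and 6, at 10.09 in replicate 3, and at 9.71, 9.73 and 9.75 in the deletion. Replicate 3 was thus above every deletion array, and the other wild type arrays were below every one. The difference over all arrays was −0.087 ± 0.108 (SE; limma adjusted p = 0.754), and without replicate 3 it was 0.047 ± 0.032 (SE; limma adjusted p = 0.346), so its sign turned. MPD1 had the same order, at 8.97 and 8.91 in wild type replicates 4 and 6, 9.17 in replicate 3, and 9.02, 9.03 and 9.05 in the deletion. Its difference was 0.014 ± 0.071 (SE; limma adjusted p = 0.948) with replicate 3 and 0.090 ± 0.042 (SE; limma adjusted p = 0.159) without it. MPD2, EPS1 and ERV2 differed by −0.00073 ± 0.059, 0.029 ± 0.055 and 0.014 ± 0.040 (SE), all within the replicates' spread.

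The remaining folding genes were FPR2, a proline isomerase, CNE1, the yeast calnexin, ROT2, the catalytic subunit of glucosidase II, and ERV29, a receptor that loads soluble cargo into vesicles leaving the ER. None of these 4 passed (limma; 0 also at an unadjusted p under 0.05). FPR2, CNE1 and ROT2 differed by −0.0075 ± 0.036, −0.070 ± 0.063 and 0.0095 ± 0.040 (SE). ERV29 stood at 10.97, 11.01 and 11.23 in wild type replicates 4, 6 and 3 and at 11.02, 11.04 and 11.07 in the deletion. Replicate 3 was again the highest of the 6 arrays and the other wild type arrays the lowest. The difference of ERV29 was −0.028 ± 0.067 (SE; limma adjusted p = 0.887) with replicate 3 and 0.051 ± 0.027 (SE; limma adjusted p = 0.222) without it, a turn of sign.

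**Figure D2:**
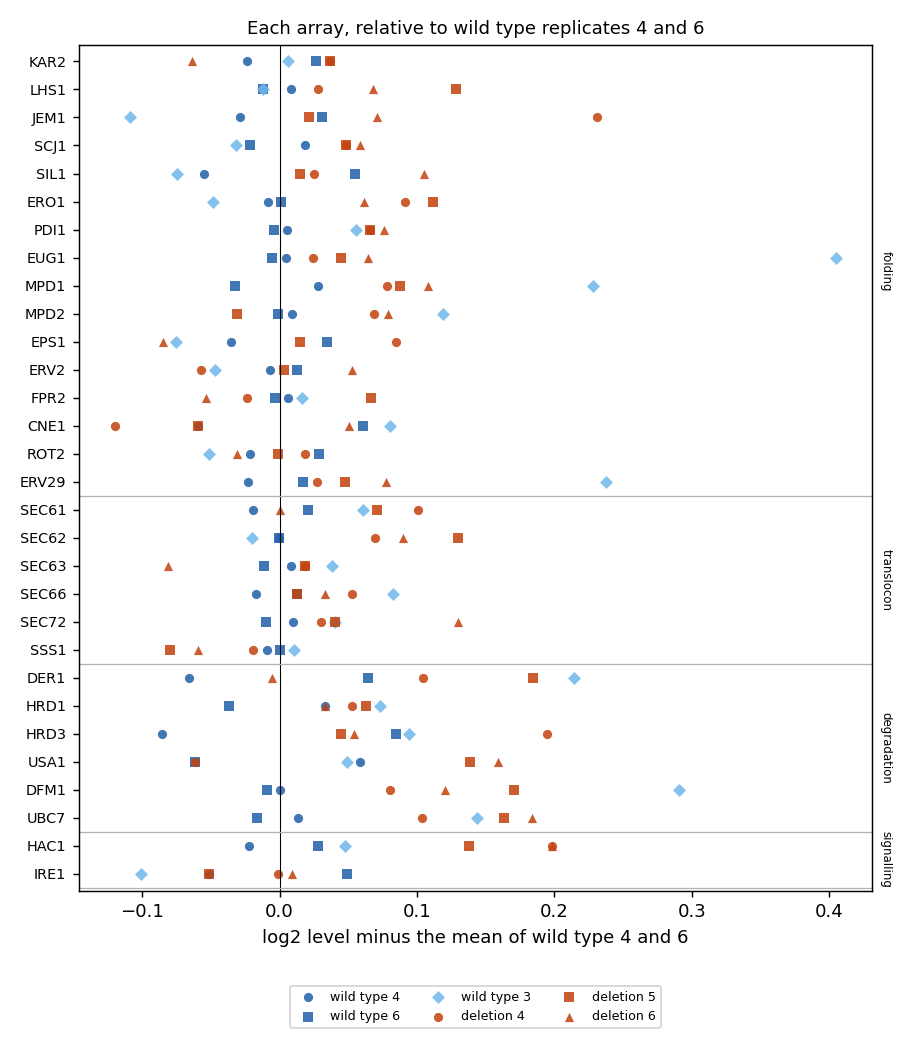
Log2 level on each array minus the mean of wild type replicates 4 and 6 (x axis) for the 30 genes (y axis). Light blue diamonds are wild type replicate 3, blue points the other wild type arrays and orange points the deletion arrays. Replicate 3 reaches 0.40 for EUG1 and lies at 0.29 for DFM1, to the right of every deletion array for both.

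Among the 6 translocon genes 0 passed (limma) and 2 had an unadjusted p under 0.05, in opposite directions, beside 17.4% of all probe sets. SEC62, which encodes a membrane subunit used by proteins that enter after their synthesis, stood at 10.95, 10.95 and 10.93 in wild type replicates 4, 6 and 3 and at 11.02, 11.08 and 11.04 in the deletion. The groups did not overlap, and the difference was 0.10 ± 0.03 (SE; 95% interval 0.036 to 0.164; limma adjusted p = 0.101). SSS1, the small subunit that clamps the channel, stood at 11.96, 11.97 and 11.98 in wild type and at 11.95, 11.89 and 11.91 in the deletion. It was the only one of the 30 genes with every deletion array lower, by −0.058 ± 0.023 (SE; limma adjusted p = 0.259).

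SEC61, the channel itself, differed by 0.038 ± 0.034 (SE), and SEC63, the J-domain subunit that brings Kar2 to the channel, by −0.027 ± 0.035. SEC66 and SEC72, which complete the complex with Sec62 and Sec63, differed by 0.0035 ± 0.033 and 0.054 ± 0.038. Their groups overlapped in each case. Of the 21 other targeting and translocation genes listed, which cover the signal recognition particle, signal peptidase and the tail-anchor pathway, 0 passed with all arrays. SRP72, a signal recognition particle subunit, had the smallest p of these, with a difference of 0.097 ± 0.033 (SE; limma adjusted p = 0.198). Without wild type replicate 3, where 22.0% of all probe sets were called, it rose by 0.10 ± 0.03 (SE; limma adjusted p = 0.0486).

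In ER-associated degradation 0 of 6 genes passed (limma; 0 also at an unadjusted p under 0.05), and in all 6 wild type replicate 3 lay above the mean of replicates 4 and 6, with a median gap of 0.12. UBC7, the ubiquitin-conjugating enzyme of the pathway, stood at 10.25, 10.22 and 10.38 in wild type replicates 4, 6 and 3 and at 10.34, 10.40 and 10.42 in the deletion. Replicate 3 was the only wild type array inside the range of the deletion. The difference was 0.10 ± 0.05 (SE; limma adjusted p = 0.344) with it and 0.15 ± 0.03 (SE; limma adjusted p = 0.00781) without it. The fit without replicate 3 called 22.0% of all probe sets. With any other array left out UBC7 was not called (limma adjusted p from 0.444 to 0.644).

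DFM1, a relative of Der1 that moves membrane proteins out of the ER, stood at 9.05 and 9.04 in wild type replicates 4 and 6, at 9.34 in replicate 3, and at 9.13, 9.22 and 9.17 in the deletion. Its difference was 0.026 ± 0.086 (SE; limma adjusted p = 0.919) with replicate 3 and 0.12 ± 0.04 (SE; limma adjusted p = 0.0653) without it. DER1 itself, part of the channel for lumenal proteins, stood at 8.91, 9.04 and 9.19 in wild type replicates 4, 6 and 3 and at 9.08, 9.16 and 8.97 in the deletion, so that the deletion arrays lay inside the wild type range. HRD1, the ubiquitin ligase, its partner HRD3 and the scaffold USA1 differed by 0.028 ± 0.044, 0.066 ± 0.073 and 0.062 ± 0.084 (SE).

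Of the 17 other degradation genes listed, 0 passed with all arrays. UBX2, the membrane protein that recruits the Cdc48 ATPase to the ligases, came closest. Its level was 8.38 ± 0.08 (SD, n = 3) in the deletion against 8.08 ± 0.07 (SD, n = 3) in wild type, and the highest wild type array, at 8.15, lay below the lowest deletion array, at 8.29. Its difference of 0.29 ± 0.07 (SE; limma adjusted p = 0.0608) was wider than that of any of the 30 genes.

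**Figure D3:**
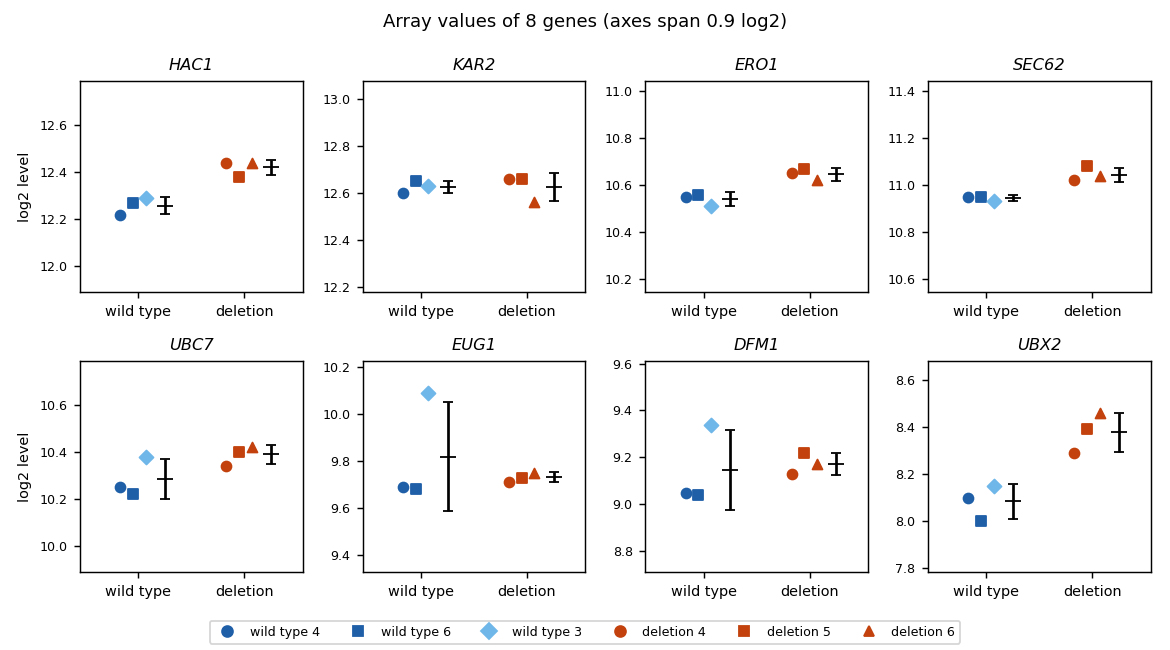
Log2 level (y axis, each spanning 0.9 log2) of 8 genes on each array, wild type on the left and VPS4 deletion on the right. The bar beside each group is its mean with SD (n = 3). For HAC1, ERO1, SEC62 and UBX2 the groups are separate, and for EUG1 and DFM1 wild type replicate 3 lies above every deletion array.

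Leaving out wild type replicate 3 changed the count of calls from 1 to 5 of the 30 genes, all higher. ERO1, PDI1, SEC62, UBC7 and HAC1 rose in that fit, by 0.088 ± 0.027, 0.069 ± 0.018, 0.093 ± 0.026, 0.15 ± 0.03 and 0.18 ± 0.03 (SE), with limma adjusted p-values of 0.0449, 0.0239, 0.0293, 0.00781 and 0.00086. Across the array 22.0% of probe sets were called without that array, 11.9% higher and 10.1% lower. The share of the 30 genes called higher was 16.7%, and 0 were lower. The median difference of the 30 genes was 0.052 in that fit, against −0.0036 for all probe sets. Their intervals then lay within 1.22-fold, and KAR2 differed by 0.0033 ± 0.032 (SE).

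The other ER lists, 77 measured genes in 5 groups, held 0 calls with all arrays (limma), beside 4.27% of all probe sets. At an unadjusted p under 0.05 there were 5, beside 17.4% of all probe sets. In the fit without wild type replicate 3, 22.0% of all probe sets were called, 11.9% higher and 10.1% lower. Of the 77 genes 15 were higher and 0 lower there, a count added after the data were seen. They came from every list, with 3 of 13 genes in folding and export, 4 of 17 in degradation, 2 of 21 in targeting and translocation, 5 of 22 in N-glycosylation and 1 of 4 in signalling. OST2, a subunit of oligosaccharyl transferase, rose by 0.24 ± 0.03 (SE; limma adjusted p = 0.00056) and CPR5, a proline isomerase of the ER, by 0.18 ± 0.02 (0.00071). MNS1, which trims mannose from glycoproteins, rose by 0.30 ± 0.08 (0.0292), and UBX2 by 0.33 ± 0.06 (0.00543). With all arrays the differences were 0.13 ± 0.09 for OST2, 0.074 ± 0.083 for CPR5 and 0.21 ± 0.10 for MNS1 (SE), and none passed (limma adjusted p = 0.531, 0.721 and 0.345). OST2, CPR5 and MNS1 were chosen after their values were seen.

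**Figure D4:**
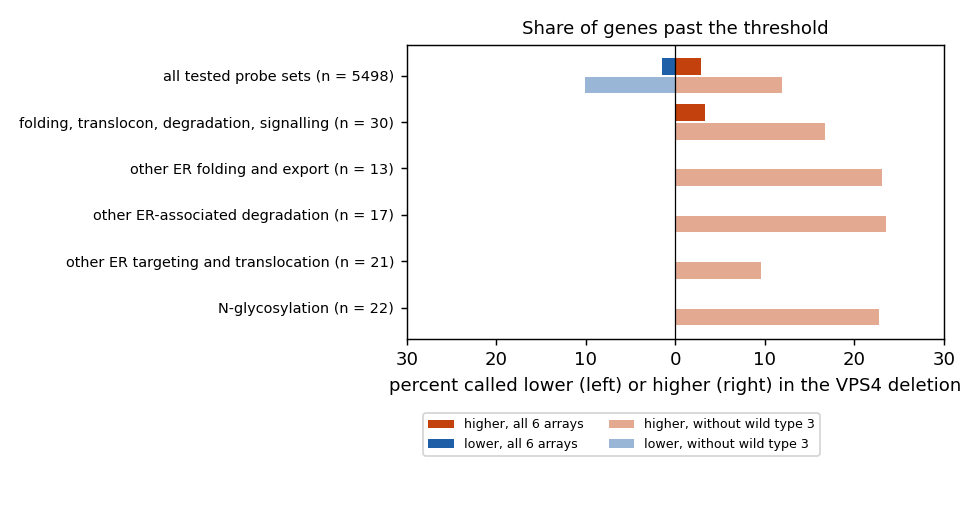
Percent of genes called higher (right, orange) or lower (left, blue) in the VPS4 deletion for all tested probe sets, the 30 ER genes and 4 of the other ER lists, with all 6 arrays (dark) and without wild type replicate 3 (pale). Without replicate 3, 22.0% of all probe sets were called, 11.9% higher and 10.1% lower. The ER bars extend to the right alone, with 5 of the 30 genes called.

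Replicate 3 lay above the mean of wild type replicates 4 and 6 in 20 of the 30 genes and in 63 of the 77 others, beside 2799 of all 5498 probe sets. That gap and the difference taken without replicate 3 share the same pair of arrays, so they are not independent. CPR5 stood at 10.87 and 10.86 in replicates 4 and 6, at 11.17 in replicate 3 and at 11.05, 11.02 and 11.05 in the deletion. Replicate 3 was the highest of all 6 arrays for 11 of the 30 genes (36.7%) and 44 of the 77 others (57.1%), beside 28.5% of all probe sets. It was also the lowest for 8 of the 30 (26.7%) and 5 of the 77 (6.49%), beside 27.6% of all. Replicate 4 or 6 was the lowest for 13 of the 30 (43.3%) and 40 of the 77 (51.9%), beside 31.2% of all.

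The 30 genes did not move with replicate 3 as 1 block. It exceeded the mean of the other wild type arrays by over 0.2 log2 in 5 of them, EUG1, DFM1, ERV29, MPD1 and DER1, and was that far below in 0. Over all probe sets, 13.2% were that far above and 15.2% that far below. KAR2, SEC62 and SSS1 differed by 0.011, −0.021 and 0.015 between replicate 3 and the mean of the other wild type arrays, and JEM1 and IRE1 by −0.11 and −0.10. In N-glycosylation the median of this deviation was 0.14, in other folding and export 0.13, and over all probe sets 0.0033. OST4, the gene of smallest p in the N-glycosylation list, and PKR1, that of folding and export, differed by −0.14 ± 0.05 and −0.071 ± 0.035 (SE) between genotypes with all arrays and did not pass (limma adjusted p = 0.255 and 0.368).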

How the data were processed

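Total RNA of midlog phase yeast was labelled with a 3′ in vitro transcription kit and hybridised to Affymetrix arrays, per the labels' protocols. The deposited log2 values per probe set were made by the authors with GCRMA, which corrects background by probe sequence, normalizes quantiles and summarises each probe set robustly, per the submitters' processing notes; the version and annotation are not given in the sources used here. GCRMA draws dim probe sets together near the floor. No further normalization was applied. Genes were assigned from the platform's annotation, with 12 symbols updated by gene ID from a table of assembly R64. The array median lay between 9.12 and 9.15. The number of arrays, 3 per group, limits the precision.

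The genotypes were compared by limma 3.58.1 (R 4.3.3), using lmFit and a two-sided eBayes test with a variance trend and no covariates, adjusted by Benjamini-Hochberg over 5498 probe sets. Intervals use the moderated SE. The 30 genes and the other lists were chosen with earlier results of these data known. Named genes are VPS4, the 30, and from each other list up to 3 genes past the threshold without overlap or else the one with the smallest p; any other was picked with its values in view, as stated beside it. Alternatives left out each array, the variance trend or the dim probe sets, used quantile normalization, median centring, a robust prior or all probe sets, or took the title number as a block. Planned sequence features were not analysed here.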

Additional observations from a re-analysis of the deposited data

How the results depend on the processing

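With 0 genes lower under every alternative run, the count of the 30 genes called higher was 1 under a robust prior, quantile normalization, median centring, the removal of dim probe sets and the testing of all probe sets, 0 without a variance trend, and 0 to 5 over the fits that left out each array. All probe sets called numbered 235, and 22 (without deletion replicate 5) to 1212 (without wild type replicate 3) when each array was left out. Of the 77 genes in the other lists, 15 were higher without wild type replicate 3, beside 11.9% of all probe sets. With it 0 were higher, beside 2.82%. The titles share numbers 4 and 6 between groups. Deviations from the group means correlated across genes at r = 0.021 and −0.059 for arrays of the same number. For arrays of different numbers r ran from −0.080 to 0.122. Since wild type replicate 3 stands apart and shifts its group's mean, this cannot decide whether the numbers pair the samples. With the number as a replicate block, the fit by its construction rests on the 4 arrays numbered 4 and 6. It called 858 probe sets, or 15.6% of all, and 2 of the 30 genes, UBC7 and HAC1. UBX2 and SRP72 were called in that fit too.

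The sign of 14 small differences, none of them called, turned under some alternative, and the cause was not tested. Under the block these were EPS1 (−0.00097), ERV2 (−0.0026), ERV29 (0.052), EUG1 (0.046), MPD2 (0.076) and ROT2 (−0.0077). Under median centring they were ERV2 (−0.0046), MPD1 (−0.0048), ROT2 (−0.0093) and SEC66 (−0.015), and under quantile normalization KAR2 (0.010), MPD1 (−0.0013) and SEC66 (−0.0013). With each array left out, the range was −0.047 to 0.095 for DER1, −0.025 to 0.12 for DFM1, −0.0089 to 0.072 for EPS1, −0.013 to 0.041 for ERV2, −0.077 to 0.051 for ERV29, −0.16 to 0.047 for EUG1, −0.042 to 0.017 for FPR2, −0.014 to 0.062 for IRE1, −0.018 to 0.034 for KAR2, −0.039 to 0.090 for MPD1, −0.023 to 0.039 for MPD2, −0.0066 to 0.031 for ROT2, −0.044 to 0.0044 for SEC63 and −0.019 to 0.031 for SEC66. No gene named here has a second probe set, so that alternative was not run.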
